A study of Mus musculus with 32 samples.

Results

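Complement is a cascade of plasma and tissue proteins that tags damaged cells and debris for removal by phagocytes. The 9 genes followed here, out of 33397 in the deposited table, were taken by name: C1qa, C1qb and C1qc, the 3 chains of the recognition molecule C1q; C1s1, a protease of the C1 complex; C4b and C3, the components cleaved downstream; Cfd, factor D of the alternative pathway, also called adipsin; Serping1, the C1 inhibitor; and C3ar1, the receptor for the fragment released from C3. RNA had been sequenced from gastrocnemius (GAS) muscles of male mice, C57BL/6 in the labels and C57BL/6J, a few weeks old, in the study's methods, at 0, 1, 3, 5, 7, 14, 21 and 28 d after the sciatic nerve was cut on 1 side, with 4 samples per time point and 32 in all. The labels name no transgene and no drug for any of the 8 groups, and the study's methods give isoflurane and the analgesic buprenorphine at surgery. The labels give sciatic nerve transection as the treatment of the 0 d mice as well, so 0 d is called by its time and not as a sham group, and the 4 columns read as 0 d are those left once every later day had its own.

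In the classical pathway C1q binds its target and activates the proteases C1r and C1s, which cleave C4 and then, through a C2-containing enzyme, C3. Factor D is the protease that starts the alternative pathway on factor B, and the membrane attack complex is built from C5 to C9. In most tissues C1q is made mainly by macrophages, C3, C4 and C1s come from the liver and from local stromal cells, and factor D comes mainly from adipocytes. Whole muscle holds all of these cells besides its fibres, and in such samples more cells of a type and more RNA per cell cannot be told apart.

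Values are in FPKM, fragment counts corrected for the exon length of the gene and the depth of the library, so levels of different genes can be set side by side. Each sample held between 14199898 and 17561590 recovered fragments. Summed FPKM of 6 muscle fibre markers was 41930 to 45060 at 0 d, 24320 to 27990 at 3 d and 22680 to 25830 at 28 d, and at most 41040 in any later sample, so no sample after 0 d reached the 0 d range. The part of this fall in the FPKM of the 9 genes was not tested. By contrast, 4 retina markers in the table summed to at most 0.222, although the extraction text in the labels speaks of retinas. The 6 hepatocyte markers summed to at most 1.04. Mitochondrial genes took 14.47% to 18.21% of fragments at 0 d and as little as 6.7% later, and the median log2 fold change of all 22071 tested genes was 0.13, 0.13, 0.15, 0.10 and 0.14 at 5, 7, 14, 21 and 28 d. The share of higher genes among all called was 68.74% to 79.46% as deposited and 44.77% to 49.58% after median-ratio scaling, which brings the medians to between -0.01 and 0.02, so fold changes of the 9 genes are given on both scales where it mattered. A 3 d sample, numbered 1 here by column order, stood apart from its group on the first principal component (distance to the nearest of its group 20.11, next largest such distance in any group 7.276), and calls and limits that turned on it are given with and without it. Nothing in the sources ties a column to an animal, so p-values measure the spread between these samples.

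C1qa, C1qb and C1qc lie side by side on chromosome 4 (GRCm38, minus strand), in 18675 bases from 136880129 to 136898803. C1s1 (chromosome 6, 124530345 to 124542359, minus strand) and C3ar1 (chromosome 6, 122847138 to 122856161, minus strand) share a chromosome, as do C3 (chromosome 17, 57203970 to 57228136, minus strand) and C4b (chromosome 17, 34728380 to 34743882, minus strand). Cfd lies on chromosome 10 (79890853 to 79892655, plus strand) and Serping1 on chromosome 2 (84765387 to 84775444, minus strand). The 576 exon bases that C1s1 shares with the antisense gene Gm16567 cannot be assigned without the strand setting of the counting, which is not given in the sources used here.

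RefSeq promoter windows (GRCm38.p6) were at hand for 6 of the 9 genes, and the 250 bases upstream of the start site were searched on both strands for an interferon response motif (GAAA followed by another GAAA after a gap of 2 bases), for TTCNNNGAA, bound by STAT factors, and for GAGGAA, the core bound by the myeloid factor PU.1. The first was in 2.98% of 32851 such windows, the second in 7.02% and the third in 23.3%. Among the 6 genes there was a GAGGAA upstream of C1qb, 30 bases before the start site, and on the other strand of the C1qc window, 193 bases before it. None of these letters were found in the windows of C1s1, C3, Cfd and C3ar1. The windows of C1qb, of C3 and of Cfd, the gene that followed a course of its own, are shown 5′ to 3′ on the strand of the gene, with the GAGGAA in capitals.
C1qb, chr4:136886201-136886450, minus strand: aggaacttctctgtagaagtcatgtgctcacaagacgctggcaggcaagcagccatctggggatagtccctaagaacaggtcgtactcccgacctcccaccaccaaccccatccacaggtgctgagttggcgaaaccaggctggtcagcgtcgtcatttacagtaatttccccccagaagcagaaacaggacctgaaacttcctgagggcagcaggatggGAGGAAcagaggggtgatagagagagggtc
C3, chr17:57228137-57228386, minus strand: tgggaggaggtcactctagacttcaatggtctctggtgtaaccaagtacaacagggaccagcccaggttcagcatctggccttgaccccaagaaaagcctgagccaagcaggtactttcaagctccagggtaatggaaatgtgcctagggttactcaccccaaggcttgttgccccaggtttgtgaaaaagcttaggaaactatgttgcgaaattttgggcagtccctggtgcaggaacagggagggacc
Cfd, chr10:79890603-79890852, plus strand: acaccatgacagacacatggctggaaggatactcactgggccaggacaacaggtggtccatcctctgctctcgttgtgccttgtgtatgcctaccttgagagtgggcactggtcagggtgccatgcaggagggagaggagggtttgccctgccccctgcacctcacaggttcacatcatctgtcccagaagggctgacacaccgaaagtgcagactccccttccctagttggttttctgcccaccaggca

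The first question was how the 9 genes stood against 0 d at each later time point. All 9 passed the filter on low values. A gene was called when the limma p adjusted over all tested genes was under 0.05 and the change was at least 1.5-fold on the log2(FPKM + 1) scale. At 1 d, 3 of the 9 were higher (C1qb, C3 and C4b), against 6.34% of all tested genes. At 3 d, 6 were higher (C1qa, C1qb, C1qc, C3, C4b and C3ar1), against 13.2%, and Cfd was lower, against 6.03%. At 5, 7 and 14 d all but Cfd were higher, 8 of 9 each time, against 14.9%, 15.4% and 14.6%. At 21 and 28 d 7 were higher, C1s1 having dropped under the 1.5-fold limit, against 11.8% and 14.2%. These comparisons share the same 4 samples of 0 d.

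Their median change against 0 d, on the log2 scale, was 0.63, 1.16, 1.53, 1.57, 1.38, 1.14 and 1.22 at the 7 later time points in order. Over all tested genes it was 0.03, 0.06, 0.13, 0.13, 0.15, 0.10 and 0.14. From 5 d on, 8 of the 9 genes had all 4 samples above all 4 of 0 d, where 35.9%, 32.4%, 36.8%, 32.9% and 36.6% of all genes did at 5, 7, 14, 21 and 28 d. At 3 d this held for C3 and C4b, 2 of the 9, against 23% of all genes. With the 3 d sample that stood apart left out, the remaining samples lay above all 4 of 0 d for every gene but Cfd. For C1qa they were at 68.8 FPKM or more against at most 35.5 at 0 d, and for C1s1 only at 18.9 or more against at most 18.2. The share of all genes without that sample was not computed.

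**Figure D1:**
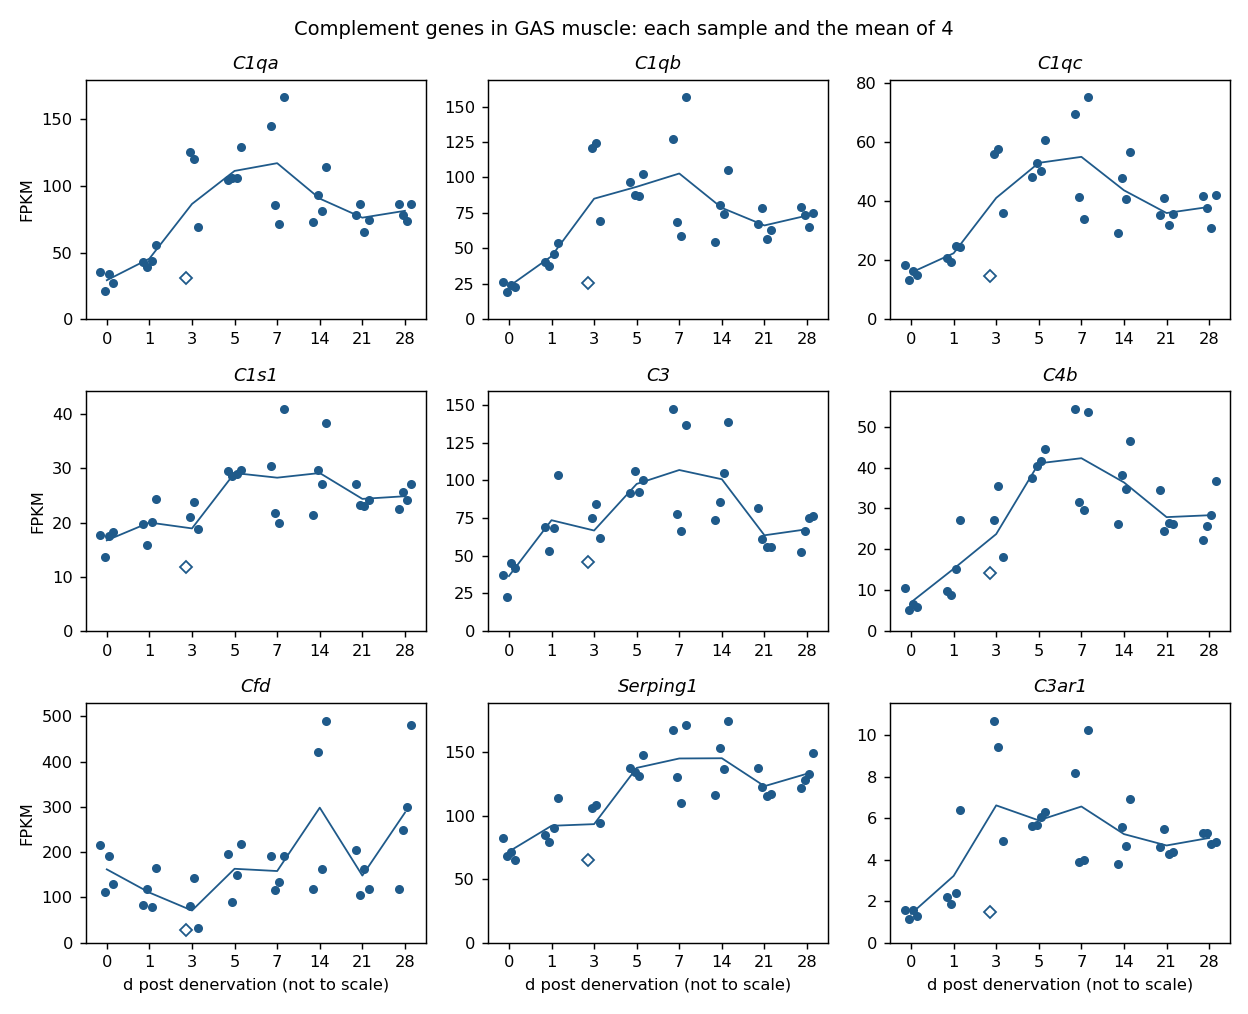
FPKM of the 9 complement genes (y axes, linear, from 0) at each time point (x axes, d post denervation, not to scale). Points are single samples, lines join the means of 4, and the open diamond is the 3 d sample that stood apart. C1q, C4b and C3ar1 lay low at 0 d and stayed above that level from 5 d on, whereas Cfd overlapped its 0 d range at every time point.

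C1qa, C1qb and C1qc, which together form the C1q molecule, were 3.48 to 4.44 times as high at 7 d as at 0 d and were still called at 28 d. C1qa had FPKM of 35.5, 21.1, 33.6 and 26.8 at 0 d, 30.8, 125.5, 120.3 and 68.8 at 3 d, 144.4, 85.5, 71.6 and 166.1 at 7 d, and 86.2, 78.4, 73.9 and 86.4 at 28 d. All samples from 5 d on lay above all samples of 0 d, and at 7 d the samples split into a high and a low pair. Its mean went from 29.2 ± 6.60 (SD, n = 4) at 0 d to 116.9 ± 45.5 at 7 d (SD, n = 4), 4.00 times as high (log2 fold change 1.90, SE 0.29, limma adjusted p = 2.635e-06). At 28 d the mean was 81.2 ± 6.17, 2.78 times that of 0 d (log2 fold change 1.47, limma adjusted p = 0.0001033).

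C1qb, whose protein chain pairs with that of C1qa, was the only C1q chain called at 1 d with all samples in 1 model. It had FPKM of 26.4, 19.2, 24.1 and 22.9 at 0 d and 40.6, 37.3, 46.3 and 53.6 at 1 d, with no overlap between the groups (log2 fold change 0.91, SE 0.32, limma adjusted p = 0.03203). This call was lost with no filter, after quantile normalization and in limma-voom on recovered fragments (adjusted p = 0.05414, 0.05455 and 0.06423), leaving 2 of the 9 genes called at 1 d. It was also lost without 0 d sample 2, 0 d sample 4, 1 d sample 3 or 1 d sample 4 (limma adjusted p = 0.08784, 0.05755, 0.0654 and 0.0919). Its 3 d samples were at 25.4, 120.9, 124.2 and 69.5 and its 7 d samples at 127.3, 68.6, 58.8 and 156.4. The mean at 7 d was 4.44 times that of 0 d (log2 fold change 2.00, limma adjusted p = 6.83e-06). C1qc, with FPKM of 18.4, 13.2, 16.5 and 15.1 at 0 d, reached 69.6, 41.2, 34.0 and 75.0 at 7 d, where its mean was 3.48 times as high (log2 fold change 1.67, SE 0.28, limma adjusted p = 1.143e-05). At 1 d all 4 samples of C1qa and of C1qc were already above 0 d, but their adjusted p was 0.1054 and 0.2259 in limma (two-sided exact permutation p = 0.0286 for each, the smallest that 4 against 4 samples allow). C1qa was called at 1 d in a fit of the 2 time points alone and without the 3 d sample that stood apart (limma adjusted p = 0.01351 and 0.0223). Counting genes with no overlap, 5 of the 9 were above 0 d at 1 d (the C1q chains, C3 and C3ar1), as were 19.9% of all genes.

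The 3 d sample that stood apart held the lowest C1q of its group, with a summed FPKM of 71.0 against 174.2 to 302.4 in the other 3, within the 0 d range of 53.4 to 80.2. With it, the log2 fold changes at 3 d were 1.36, 1.60 and 1.16 for C1qa, C1qb and C1qc, and without it they were 1.79, 2.09 and 1.58. All 3 chains were called either way. The calls of the 3 chains, of C4b and of C3ar1 at 3 d and at every later time point also held under each other scaling, filter and model and with each sample left out in turn.

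C4b, whose product is cleaved by C1s and binds covalently to the target, had the largest fold change of the 9 genes. Its FPKM was 10.4, 5.22, 6.71 and 5.77 at 0 d, 37.5, 40.5, 41.6 and 44.5 at 5 d, 54.3, 31.7, 29.7 and 53.5 at 7 d and 22.4, 25.8, 28.5 and 36.7 at 28 d. Every sample from 3 d on exceeded every sample of 0 d. The mean rose from 7.03 ± 2.34 (SD, n = 4) to 42.3 ± 13.4 at 7 d (SD, n = 4), a ratio of 6.02 (log2 fold change 2.42, SE 0.28, limma adjusted p = 2.903e-08), and at 28 d it was still 4.03 times that of 0 d (limma adjusted p = 2.038e-06). After median-ratio scaling its log2 fold changes lay between 0.76 and 2.07. At 1 d C4b was called (log2 fold change 0.93, limma adjusted p = 0.01158) although its range of 8.94 to 27.1 overlapped that of 0 d. C4a, a close copy of C4b, had at most 20 fragments in any sample, and how reads shared by the pair were divided is not given in the sources used here.

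C3, the component on which the complement pathways converge, was already higher at 1 d. It stood at 37.1, 22.5, 44.8 and 41.6 FPKM at 0 d and at 69.0, 53.4, 68.4 and 103.6 at 1 d, with no overlap. The mean was 2.02 times that of 0 d at 1 d (log2 fold change 1.00, SE 0.25, limma adjusted p = 0.002307), 2.93 times at 7 d (1.49, limma adjusted p = 1.094e-05) and 1.85 times at 28 d (0.90, limma adjusted p = 0.003328). After quantile normalization the call of C3 at 3 d was lost (log2 fold change 0.59, limma adjusted p = 0.05193). The 7 d samples again fell into a high pair (147.3 and 136.5) and a low pair (77.7 and 66.2). After median-ratio scaling the differences at 21 and 28 d were 0.51 and 0.53 on the log2 scale, with limma adjusted p of 0.0609 and 0.05165, and no longer counted as called. The call at 21 d was also lost without 0 d sample 2 (0.60, limma adjusted p = 0.05825).

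C3ar1, through which the C3 fragment acts on myeloid cells, had the lowest level of the 9 genes throughout and a course like that of C1q (Pearson r = 0.965 with C1qb over the 32 samples, a description). Its FPKM was 1.58, 1.15, 1.57 and 1.27 at 0 d, 1.49, 10.7, 9.42 and 4.89 at 3 d, 5.61, 5.65, 6.04 and 6.28 at 5 d and 5.29, 5.28, 4.78 and 4.85 at 28 d. From 5 d on no sample came near the range of 0 d, and only the 3 d sample that stood apart remained inside it. The log2 fold change was 1.44 at 3 d (SE 0.33, limma adjusted p = 0.0005993), 1.91 without that sample, 1.53 at 5 d and 1.34 at 28 d (limma adjusted p = 0.00123).

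The 1 d group contained a sample, numbered 4, that was high in several of the 9 genes. C3ar1 was 6.39 FPKM in it and 1.89 to 2.39 in the other 3, and C4b was 27.1 against 8.94 to 15.2. In the same sample the neutrophil genes S100a9 and S100a8 stood at 60.6 and 21.3, against 4.61 to 31.6 and 1.12 to 9.94 in the others, and the 6 neutrophil markers, of which 5 were tested and 4 were higher at 1 d than at 0 d, against 6.34% of all tested genes, summed to between 8.86 and 94.0 at 1 d and between 1.30 and 2.28 at 0 d. From 3 to 28 d they summed to 17.6 to 56.3, above 0 d in every sample, with 4, 2, 3, 3, 2 and 2 of the 5 higher, against 13.2%, 14.9%, 15.4%, 14.6%, 11.8% and 14.2% of all tested genes. A single gene could make up most of such a sum. At 14 d the highest single value was 45.2 and the highest sum 56.3, and at 28 d they were 35 and 41.8. Without 1 d sample 4 C3 was still called at 1 d (log2 fold change 0.82, limma adjusted p = 0.01699), while C4b (0.62, limma adjusted p = 0.08886) and C1qb (0.82, limma adjusted p = 0.0919) were not, leaving 1 gene of 9. The sum of the macrophage markers was highest in this sample too, at 312.5 FPKM against 194.5 to 204.8, Fcgr1 at 13.0 against 1.88 to 3.32 and Cd68 at 28.7 against 11.6 to 18.5. The part of neutrophils or macrophages in these values was not tested.

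C1s1 and Serping1, the protease and the inhibitor that acts on it, had smaller fold changes and were first called at 5 d. C1s1 had FPKM of 17.6, 13.6, 17.5 and 18.2 at 0 d, 11.9, 21.1, 23.9 and 18.9 at 3 d and 29.5, 28.6, 28.9 and 29.6 at 5 d. The 3 d samples overlapped 0 d, and the 5 d samples were tightly grouped above it, at 1.74 times the mean (log2 fold change 0.77, SE 0.19, limma adjusted p = 0.001001). The difference depended on the scaling, being 0.40, 0.31 and 0.36 at 5, 7 and 14 d after median-ratio scaling, under 1.5-fold each time, and at 3 d its sign turned from 0.14 to -0.09, neither of them called, while without the 3 d sample that stood apart it was 0.33 (limma adjusted p = 0.1348). Without 7 d sample 4 the difference at 7 d was 0.49 (limma adjusted p = 0.02916), under 1.5-fold. C1s2, a close copy, held at most 11 fragments in any sample.

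Serping1 was the most abundant of the genes that rose, with FPKM of 82.4, 68.0, 71.1 and 65.4 at 0 d, 137.5, 133.9, 131.2 and 147.2 at 5 d and 121.9, 127.8, 132.3 and 149.5 at 28 d. From 5 d on all of its samples were above those of 0 d. The log2 fold change was 0.35 at 3 d (limma adjusted p = 0.0525; without the sample that stood apart 0.51, limma adjusted p = 0.002542, under 1.5-fold), 0.93 at 5 d (SE 0.15, limma adjusted p = 4.646e-06), 1.00 at 14 d (limma adjusted p = 1.712e-06) and 0.88 at 28 d (limma adjusted p = 1.073e-05). After median-ratio scaling it was 0.55, 0.61, 0.60, 0.47 and 0.50 from 5 to 28 d, with adjusted p under 0.05 each time but at least 1.5-fold at 7 and 14 d only.

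**Figure D2:**
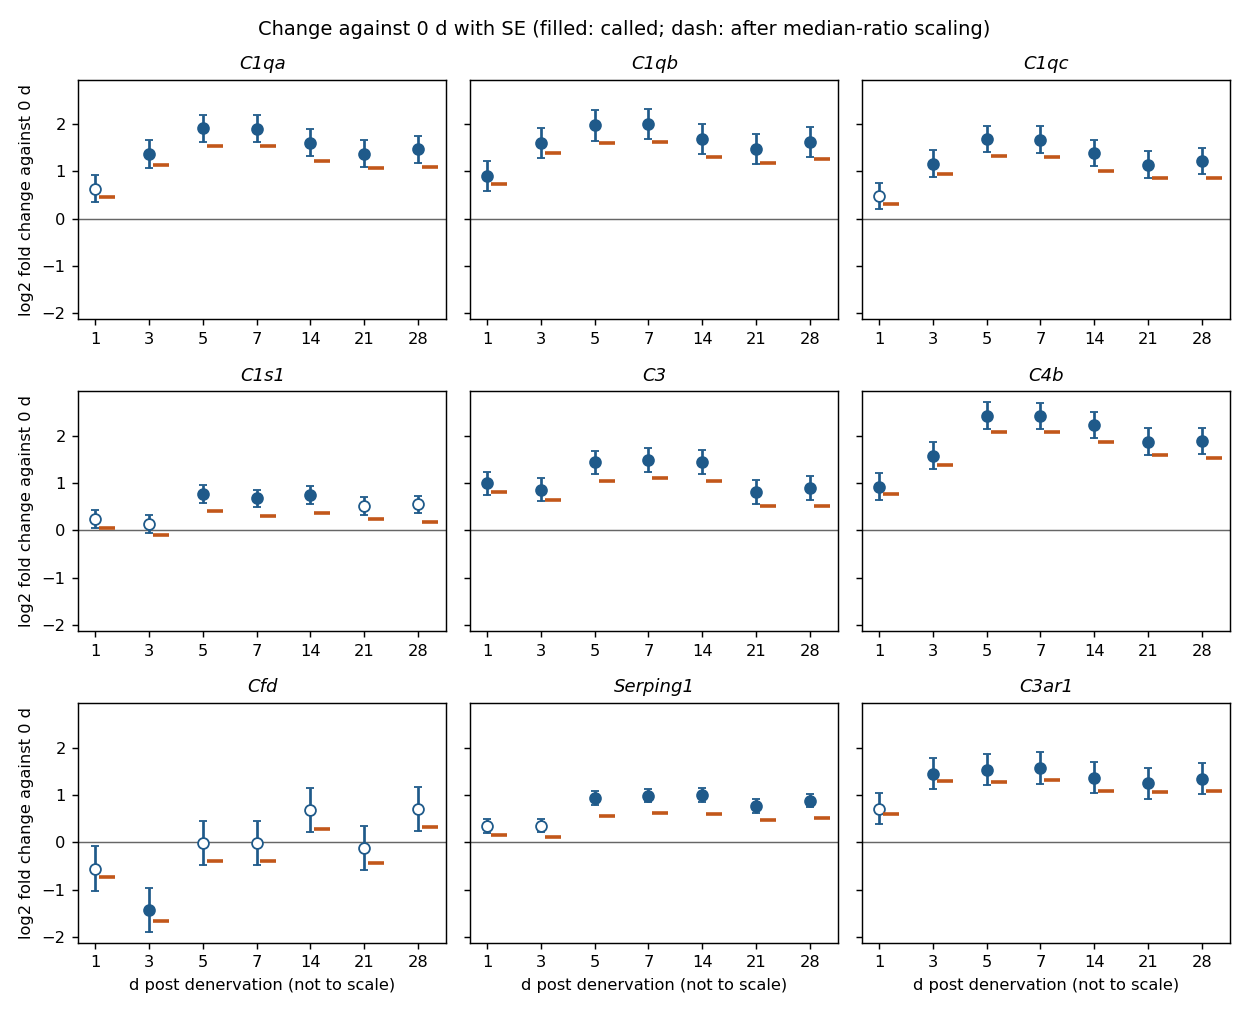
Log2 fold change against 0 d (y axis) of each gene at each later time point (x axis, not to scale). Circles are values on the deposited scale with the standard error from limma, filled where called, and dashes are the same after median-ratio scaling. The dashes lie lower than the circles for every gene, and C4b at 5 and 7 d has the highest circles (2.43 and 2.42).

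Cfd did not share this course. Its FPKM was 216.9, 111.9, 190.8 and 128.9 at 0 d, 29.3, 80.3, 143.5 and 31.9 at 3 d, 119.5, 421.9, 162.5 and 489.7 at 14 d, and 119.6, 249.3, 299.9 and 480.6 at 28 d. The groups overlapped at every time point, and the highest sample was 4.90, 4.10 and 4.02 times the lowest at 3, 14 and 28 d. At 3 d the mean was 0.44 times that of 0 d (log2 fold change -1.43, SE 0.47, limma adjusted p = 0.01377, two-sided exact permutation p = 0.0857). The difference was -1.11 without the sample that stood apart (limma adjusted p = 0.06561) and -1.15 without sample 4 of that day (limma adjusted p = 0.06524), so the call rested on these samples. The values at 14 d (log2 fold change 0.68, limma adjusted p = 0.2438) and 28 d (0.71, limma adjusted p = 0.2258) did not pass the test.

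Levels of the 9 genes at 0 d ran from Cfd (mean FPKM 162) through Serping1 (71.7), C3 (36.5), C1qa (29.2), C1qb (23.1), C1s1 (16.7), C1qc (15.8) and C4b (7.03) to C3ar1 (1.39). C3 and C1qa, C1qa and C1qb, and C1s1 and C1qc overlapped between samples. At 7 d the order was Cfd (158), Serping1 (145), C1qa (117), C3 (107), C1qb (103), C1qc (55.0), C4b (42.3), C1s1 (28.3) and C3ar1 (6.56), where each gene overlapped the next except C1s1 and C3ar1. C4b thus stood below C1s1 at 0 d and above it at 7 d.

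The next question was when the changes took place. From 1 to 3 d none of the 9 genes was called, against 6.63% of all tested genes higher and 3.93% lower; 5 had an unadjusted limma p under 0.05, and limma-voom on recovered fragments called 0. From 3 to 5 d 3 were higher (C1s1 by 0.64, C4b by 0.85 and Cfd by 1.42 on the log2 scale, with limma adjusted p of 0.01163, 0.02669 and 0.02642), against 3.72% of all genes higher and 2.05% lower, and Serping1 rose by 0.58 (limma adjusted p = 0.003593), just under the 1.5-fold limit. The step of C1s1 was under 1.5-fold after median-ratio scaling (0.49), which left 2 genes, and after quantile normalization (0.58), that of Serping1 was called with a pseudocount of 0.1, as TPM and after quantile normalization, and that of Cfd was lost in a fit of the 2 time points alone (limma adjusted p = 0.08003). The steps of C4b and Cfd from 3 to 5 d were lost, too, without single other samples of 3 d or 5 d. This timing turned on the 3 d sample that stood apart. Without it 5 genes were called from 1 to 3 d, C1qa by 1.15, C1qb by 1.19, C1qc by 1.10, C4b by 0.86 and C3ar1 by 1.20 (limma adjusted p = 0.0002167, 0.0003583, 0.000209, 0.02093 and 0.0009249), and none from 3 to 5 d, where Serping1 changed by 0.42 (limma adjusted p = 0.02884), under 1.5-fold.

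After 5 d no step between consecutive time points was called for any of the 9 genes in limma or limma-voom, with an unadjusted limma p under 0.05 for 1 of them from 14 to 21 d (C3) and 0 in the other steps, where 0.657%, 0.634%, 0.453% and 0.199% of all genes were called in either direction. Means of the C1q chains, C3, C4b and C3ar1 fell from 7 to 21 d, for C3 mostly from 14 to 21 d (log2 difference -0.63, SE 0.25, limma adjusted p = 0.2406). C1qa changed by -0.30 from 7 to 14 d, by -0.23 from 14 to 21 d and by 0.10 from 21 to 28 d, all with limma adjusted p above 0.05.

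Because the C1q chains are made into a single protein, their ratios within a sample were compared, which a scaling factor per sample cannot alter, although quantile normalization can. C1qa over C1qb was 0.942 to 1.39 over the 32 samples (median 1.14) and C1qa over C1qc was 1.60 to 2.50 (median 2.08). C1qb over C1qc was 1.44 to 1.52 at 0 d and 1.66 to 2.19 in all later samples, with no overlap. The lowest ratio after 0 d was at 5 d, and at 28 d it was 1.79 to 2.11. The pattern was noticed in these data and is given without a test.

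**Figure D3:**
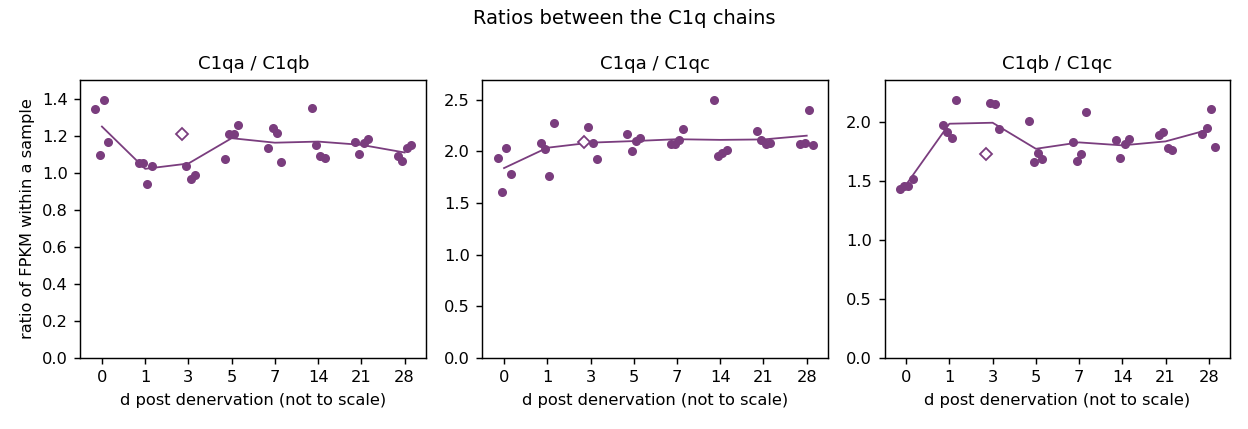
Ratio of FPKM between C1q chains within each sample (y axes, linear, from 0) by time point (x axes, d post denervation, not to scale). Points are samples, lines join means of 4, and the open diamond is the 3 d sample that stood apart. The C1qb to C1qc ratio of the 0 d samples, at most 1.52, lies below that of every later sample.

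Macrophage markers moved with the C1q chains. Of the 10 markers, 3, 8, 10, 9, 9, 8 and 8 were higher than at 0 d at 1, 3, 5, 7, 14, 21 and 28 d, against 6.34%, 13.2%, 14.9%, 15.4%, 14.6%, 11.8% and 14.2% of all tested genes. Their summed FPKM, much of it lysozyme (Lyz2), was 127.4 to 183.3 at 0 d, 194.5 to 312.5 at 1 d, 270.0 to 917.0 at 3 d (460.6 to 917.0 without the sample that stood apart), 481.6 to 604.4 at 5 d, 339.4 to 1057 at 7 d and 396.0 to 474.8 at 28 d. At 7 d the same pair of samples that was high in C1q had the higher macrophage sums (751.2 and 1057, against 404.7 and 339.4). That pair was also higher in the sum of fibroblast markers (813.3 and 973.7, against 589.1 and 471.9). So it was in the adipocyte markers without Car3 (108.4 and 107.0, against 73.8 and 95.55) and in Cfd (191.6 and 192.4, against 116.1 and 133.5). The 3 d sample that stood apart was low in Adgre1, the macrophage surface marker F4/80 (2.18 FPKM against 9.37 to 17.4 in the other 3), and in the growth factor receptor gene Csf1r (6.55 against 16.8 to 27.1), but not in the lysosomal marker Cd68 (133.0 against 94.1 to 154.8). The part of macrophage number in the C1q values was not tested.

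Relative to single macrophage genes the course of the C1q chains depended on the gene. The summed C1q FPKM divided by that of Adgre1 was 15.9 to 19.7 at 0 d, 14.7 to 20.2 at 1 d, 17.4 to 32.6 at 3 d (at most 19.6 without the sample that stood apart) and 15.55 to 22.15 from 5 d on, so each group overlapped 0 d. Divided by Csf1r it was 6.36 to 8.25 at 0 d and 8.87 to 12.7 in all later samples, without overlap. Divided by Cd68 it fell from between 10.2 and 12.5 at 0 d to between 0.534 and 2.77 at 3 d, or 1.85 and 2.77 without the sample that stood apart, and was back at 7.05 to 11.1 at 28 d. Against Fcgr1, an antibody receptor, it went from between 104.7 and 177.6 at 0 d to between 10.3 and 51.1 at 1 d, or 31.4 and 51.1 without 1 d sample 4, and was 64.2 to 79.3 at 28 d. Against the chemokine receptor gene Cx3cr1 it was 156.2 to 386.4 at 0 d and 101.0 to 139.7 at 28 d. Other markers went the other way. Against Mertk it was 31.26 to 45.42 at 0 d and 61.08 to 99.12 at 28 d. Against Cd163 it was 7.238 to 10.05 and then 14.97 to 19.18, and against Mrc1 6.685 to 7.396 and then 9.048 to 10.46. Against Lyz2 and Aif1 the 28 d range overlapped that of 0 d. These ratios are descriptions, and were not tested.

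Of the 8 fibroblast markers, 1, 0, 4, 3, 2, 2 and 2 were higher than at 0 d at the 7 later time points, where 6.34%, 13.2%, 14.9%, 15.4%, 14.6%, 11.8% and 14.2% of all tested genes were, and their sum was 467.5 to 608.4 at 0 d and 676.7 to 809.6 at 5 d, with overlap between 0 d and each of the other time points. At 3 d the sample that stood apart had Col1a1 at 9.76 FPKM against 49.9 to 105.7 in the other 3, and C1s1 at 11.9 against 18.9 to 23.9. Their part in the values of C1s1, C3, C4b and Serping1 was not tested.

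Adipocyte markers were examined beside Cfd. At 3 d 3 of the 8 were lower than at 0 d, against 6.03% of all tested genes, among them the lipid droplet gene Plin1 (log2 fold change -1.31, limma adjusted p = 0.01574), and at 5 d 1 was, Retn, against 3.86%. At 7, 14, 21 and 28 d 1 was higher, Car3, which slow muscle fibres also express, against 15.4%, 14.6%, 11.8% and 14.2% of all tested genes. From 0 to 3 d mean FPKM fell for Car3 (1079 to 551.9), Plin1 (7.807 to 2.749) and Retn (6.052 to 1.638). The mean changed little for Cidec (11.53 to 10.99), Fabp4 (69.34 to 64.61) and Pck1 (7.157 to 7.824). Adipoq (22.74 to 17.54) and Lep (3.707 to 2.641) lay between. Without Car3 the list summed to 98.5 to 171.5 FPKM at 0 d, 71.6 to 170.9 at 3 d, 80.2 to 209.2 at 14 d and 96.0 to 208.4 at 28 d. At 14 d the samples with the highest Cfd, numbered 2 and 4, also had the highest sums (197.0 and 209.2, against 80.2 and 97.9). This was not particular to adipocyte markers. The same samples had the highest macrophage sums (523.8 and 847.8, against 344.1 and 501.7) and fibroblast sums (752.7 and 783.7, against 579.1 and 611.4). Cfd divided by the adipocyte hormone gene Adipoq was 6.07 to 9.29 at 0 d, 3.76 to 4.92 at 3 d and 8.18 to 9.32 at 14 d, a narrower spread within these time points than that of Cfd itself. At 1 d the ratio was 3.97 to 16.6, a wider spread than that of Cfd, whose highest sample was 2.099 times its lowest there. The course at 3 d depended on the marker. Cfd over Cidec was 11.57 to 17.42 at 0 d and 4.817 to 7.146 at 3 d, and over Pck1 19.35 to 26.08 and 6.336 to 11.85. Over Plin1 it was 17.02 to 28.14 and 23.87 to 30.62, and over Retn 21.99 to 35.11 and 28.36 to 52.7. Over Fabp4, Lep and Car3 the 3 d range overlapped that of 0 d. The part of adipocyte content in the Cfd values was not tested.

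**Figure D4:**
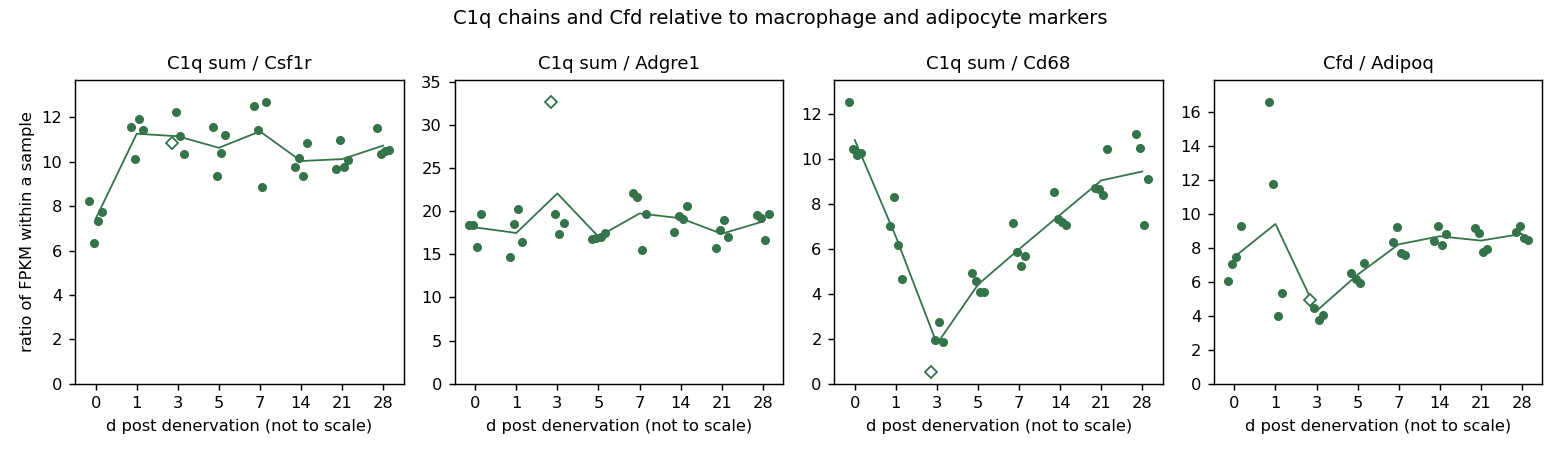
Summed FPKM of the C1q chains over that of the macrophage genes Csf1r, Adgre1 and Cd68, and FPKM of Cfd over that of the adipocyte gene Adipoq, in each sample (y axes, linear, from 0) by time point (x axes, not to scale). Points are samples, lines join means of 4, and the open diamond is the 3 d sample that stood apart. C1q over Cd68 reaches its lowest values at 3 d (0.534 in the sample that stood apart, 1.85 to 2.77 in the other 3), and Cfd over Adipoq has its lowest median there (range 3.76 to 4.92).

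The rest of the pathway was followed in a list of 47 other complement genes, of which 45 were in the table and 33 passed the filter. Of these 33, 6, 9, 11, 12, 7, 9 and 8 were higher than at 0 d at the 7 later time points and 0, 4, 2, 2, 1, 2 and 2 were lower, so 18.2% to 36.4% were higher and at most 12.1% lower. Of all tested genes 6.34%, 13.2%, 14.9%, 15.4%, 14.6%, 11.8% and 14.2% were higher at these time points and 2.49%, 6.03%, 3.86%, 4.1%, 3.83%, 3.93% and 4.1% were lower. Their median log2 fold change was between 0.09 and 0.28. Of the 12 with the largest changes among the 22 that reached a mean FPKM of 1, 11 are described here.

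Of the early steps of the cascade, 3 genes are among the 12. C1ra, the protease that activates C1s, went from a mean FPKM of 8.72 to 17.8 at 5 d (log2 fold change 0.96, SE 0.17, limma adjusted p = 2.293e-05) and was called from 5 d to 28 d, as deposited, but only at 5 d after median-ratio scaling. Fcna, a ficolin of the lectin pathway, rose from 1.63 to 6.73 at 3 d and 7.84 at 5 d (log2 fold change 1.76, limma adjusted p = 2.362e-06) and stood at 1.69 at 28 d. Calr, calreticulin, an endoplasmic reticulum chaperone that also binds C1q, rose from 51.6 to 112.2 at 5 d (log2 fold change 1.11, limma adjusted p = 3.732e-10) and was called at all 7 later time points, at 2 of them after median-ratio scaling.

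Cfp, properdin, which stabilises the alternative pathway enzyme, rose from a mean FPKM of 5.83 to 18.6 at 5 d (log2 fold change 1.53, SE 0.24, limma adjusted p = 5.007e-06) and was called at all 7 later time points, at 6 of them after median-ratio scaling. Cd59b and Vtn, both inhibitors of the membrane attack complex, were lower, while Clu, clusterin, another such inhibitor outside the 12, was higher at 2 time points. Cd59b fell from 3.02 to 0.698 at 3 d (log2 fold change -1.25, SE 0.16, limma adjusted p = 1.784e-07) and was lower at 6 time points. Its close copy Cd59a, outside the 12 and named here for comparison, fell from 30.0 to 15.4 at 5 d (log2 fold change -0.92, limma adjusted p = 9.234e-10), and reads that the copies share could be divided between them in ways not given in the sources used here. Vtn, vitronectin, fell from 15.5 to 7.68 at 3 d (log2 fold change -0.93, limma adjusted p = 1.014e-09). It was called lower at 3 time points as deposited and as TPM, and at 6 after median-ratio scaling.

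Receptor genes for complement fragments make up the rest of the 11. C5ar1, the receptor for the C5 fragment, went from 1.70 to 7.48 at 3 d (log2 fold change 1.56, SE 0.27, limma adjusted p = 2.194e-05), a peak from which it came down to 3.48 at 28 d. Called at all 7 later time points, it was called at 4 after median-ratio scaling, the calls at 14 d (log2 fold change 0.57, under 1.5-fold), 21 d (0.47, limma adjusted p = 0.1111) and 28 d (0.48, limma adjusted p = 0.09951) being lost. Its call at 21 d (limma adjusted p = 0.04985) was also lost when any of the 21 d samples was left out. Itgb2, the shared chain of the leukocyte integrins, rose from 2.43 to between 6.13 and 9.46 and was called at all 7 later time points under either scaling. Of its partner chains, Itgam of complement receptor 3 was called from 1 to 7 d (highest at 3 d, 0.392 to 2.03, limma adjusted p = 0.0001122), though not at 7 d after median-ratio scaling (log2 fold change 0.48, under 1.5-fold), and Itgax of complement receptor 4 from 7 to 28 d (highest at 14 d, 0.227 to 1.64, limma adjusted p = 1.939e-05). Vsig4, a receptor for C3 fragments on resident macrophages, rose from 0.342 to 2.26 at 3 d (log2 fold change 1.27, limma adjusted p = 9.764e-08).

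**Figure D5:**
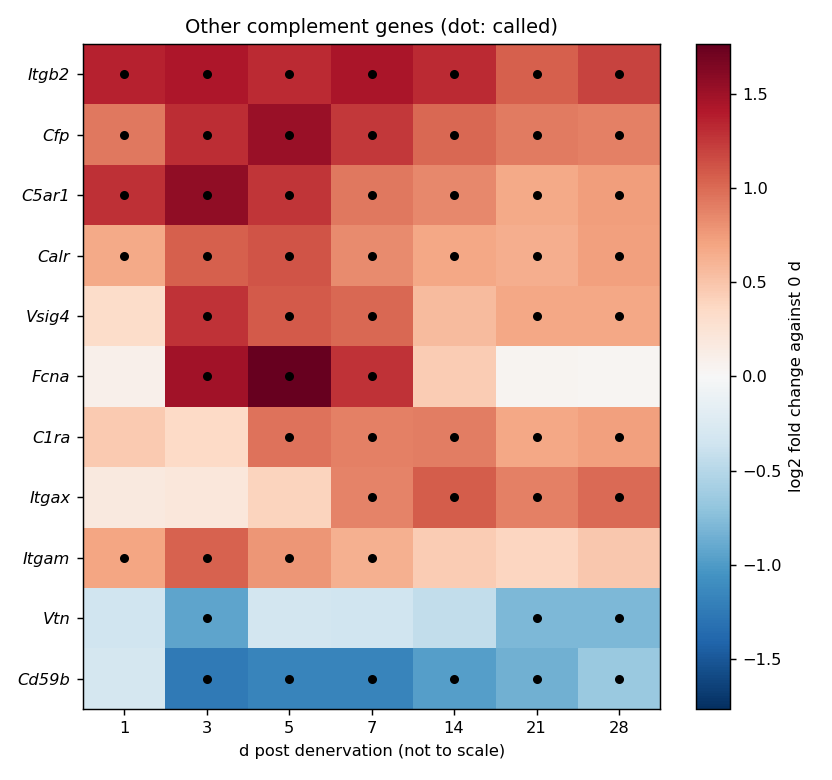
Log2 fold change against 0 d (colour) of 11 other complement genes (rows) at each later time point (columns, d post denervation, not to scale), with a dot where a gene was called. Fcna is coloured at 3 to 7 d and pale later, and Cd59b and Vtn are the genes that were lower.

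Several components that link these genes in the cascade had few fragments. Cfb, the substrate of factor D, had at most 5 fragments in any sample, Hc, which encodes C5, at most 6, Masp2 at most 13, Cfi at most 6 and C2 at most 36. C9, Mbl2, Fcnb, C8a, C4bp and Cd55b were at 3 fragments or fewer in all 32 samples, and 11 of the 45 genes had a mean FPKM under 0.1 at every time point. Changes of genes at 3 fragments or fewer in every sample could not be followed at this depth.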

How the data were processed

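RNA was sequenced from 32 GAS muscles, and the authors deposited FPKM values for 33397 genes. The submitters' processing notes name HISAT2 2.1.0, DESeq2 and GRCm38. The counter is not given in the sources used here. Identifiers of 33356 genes matched GENCODE mouse release 21, 41 did not, and its merged exon lengths turned 99.3% to 99.4% of low values (under 200 fragments, tolerance 0.05) back into whole fragments, giving depth. Intervals from depth would cover counting error only.

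Columns of 1 to 28 d name the time point, the 4 named C were read as 0 d, and none names an animal. In R 4.3.3, limma 3.58.1 (moderated by eBayes with a trend) compared log2(FPKM + 1) in 1 model of all samples, over the 22071 genes that reached an FPKM of 0.1 in 4 samples or more, with Benjamini-Hochberg adjustment in each comparison. The pseudocount makes fold changes of low genes too small. Single genes were compared by exact permutation, two-sided, in Python 3.11.15. Simulated counts with known changes served to check the model. The members and lists were chosen with earlier results of these data known. Named were the 9 genes at every time point and, of the listed complement genes that reached a mean FPKM of 1, the 12 with the largest change, 1 of which is not reported here. Alternatives covered the pseudocount, filter, scaling (TPM, median-ratio, quantile), model, a fit of 2 time points alone and omission of single samples. Leaving out the 3 d sample that stood apart was chosen after seeing the data.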

Additional observations from a re-analysis of the deposited data

Results flagged for a closer look

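Of 72 groups of 4 samples (9 genes, 8 time points), 3 had 1 value whose gap to the nearest other, divided by the range of the group, was above Dixon's critical value. By chance about 1 in 20 groups would, here 3.6. C1qa at 5 d was 128.9 FPKM in 1 sample and 104.0 to 106.0 in the others. C1s1 at 0 d was 13.6 in 1 sample and 17.5 to 18.2 in the others. C3ar1 at 1 d was 6.387 in 1 sample and 1.89 to 2.39 in the others.

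The difference from 0 d changed between 3 and 5 d by 0.64 for C1s1, 0.85 for C4b and 1.42 for Cfd on the log2 scale, by the limma test of the step itself. None of these passed without the 3 d sample that stood apart (0.44, 0.64 and 1.10, limma adjusted p = 0.08276, 0.1311 and 0.1228). The step of C4b was also lost without 3 d sample 4, 5 d sample 3 or 5 d sample 4 (limma adjusted p = 0.08257, 0.05342 and 0.06474). That of Cfd was lost without 3 d sample 4, 5 d sample 1 or 5 d sample 4 (limma adjusted p = 0.1076, 0.07053 and 0.08519).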

How the results depend on the processing

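Direction against 0 d was kept for every call of the 9 genes under the alternatives run. The count at 1 d, 3 on the deposited scale, was 2 with no filter, after quantile normalization and with limma-voom on recovered fragments, 4 in a fit of the 2 time points alone and 5 without the 3 d sample that stood apart, when C1qa (limma adjusted p = 0.0223) and C3ar1 (0.03114) were added. From 1 to 3 d the count of 0 became 2 with a filter at an FPKM of 1, 2 after median-ratio scaling (C1qa and C1qc both times) and 5 without that sample, and from 3 to 5 d the count of 3 became 2 after median-ratio scaling and 0 without it. Median-ratio scaling called 6, 7, 7, 5 and 5 of the 9 at 5, 7, 14, 21 and 28 d. For the other complement genes the count at 14 d, 8, was 13 with a pseudocount of 0.1, 13 as TPM and 14 with limma-voom on recovered fragments. At 21 d the count of 11 was 7 after quantile normalization, and at 28 d the count of 10 was 16 with a pseudocount of 0.1, 6 after median-ratio scaling, 6 after quantile normalization and 17 with limma-voom. The cause was not tested.

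Leaving out each sample in turn gave 1 to 5 of the 9 genes called at 1 d, 6 to 7 at 3 d, 8 at 5 d, 7 to 8 at 7 d, 8 at 14 d, 6 to 7 at 21 d and 7 to 8 at 28 d, 0 to 5 from 1 to 3 d, 0 to 4 from 3 to 5 d and 0 in each later step. At 1 d the lowest count was without 1 d sample 4 and the highest without 3 d sample 1. For the other complement genes the counts were 4 to 6 at 1 d, 13 at 3 d, 12 to 13 at 5 d, 12 to 15 at 7 d, 8 to 9 at 14 d, 9 to 11 at 21 d and 8 to 10 at 28 d. No paired analysis was possible because the columns of the table carry no replicate number of the labels. Genes under about 3 fragments per sample are below what this depth can follow.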

Other observations

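Over the 32 samples, the genes with a course of log2(FPKM + 1) most like that of a complement gene included Unc93b1 (Pearson r = 0.983) and Laptm5 (0.972) for C1qa, Laptm5 (0.985) and the myeloid adaptor gene Tyrobp (0.98) for C1qb, the receptor gene Csf1r (0.975) and Unc93b1 (0.974) for C1qc, and Laptm5 (0.979) and Cd84 (0.971) for C3ar1. C1s1 was close to C1ra (0.948), Serping1 to Os9 (0.946) and C1ra (0.942), C3 to Rnpep (0.883), and C4b to Caprin1 (0.944) and the chemokine gene Ccl8 (0.938). Cfd was close to Slc1a5 (0.933) and Acp5 (0.933), and its r with the other 8 complement genes was between 0.285 and 0.624. Samples of a time point share their time and all share 1 table, so these coefficients describe likeness of course only.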
